A study of Arabidopsis thaliana with 12 samples.

Results

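The 10 genes described here encode WRKY transcription factors of Arabidopsis thaliana: 7 of group III (WRKY30, WRKY41, WRKY46, WRKY53, WRKY54, WRKY55 and WRKY70) and the 3 of group IIa (WRKY18, WRKY40 and WRKY60). They were taken by their locus identifiers from a table of 33602 genes, and 9 of the 10 reached the level needed for testing. mRNA was measured by RNA sequencing in cut whole roots of 10-day-old seedlings grown under 24 h light. Each of 12 libraries came from 12 seedlings. These had been kept in liquid and shaken for 1 h with the synthetic cytokinin benzyladenine (BA) at 5 µM, or with the vehicle, NaOH. The 4 groups of 3 libraries were wild type (WT, accession Col-0) with vehicle, WT with BA, the quintuple mutant bpc1,2,3,4,6 (written bpc) with vehicle, and bpc with BA. The mutant carries lesions in 5 genes of the BASIC PENTACYSTEINE (BPC) family, whose proteins bind GA-repeat DNA, and no line with fewer lesions or with a restored gene was analysed here. All groups shared the shaking in liquid, and no unshaken group was analysed here.

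WRKY proteins carry a DNA-binding domain named after its conserved WRKY residues and recognise the W box, a short DNA element with the core TTGAC. Group III members are best known for their parts in salicylic acid defence and leaf senescence, and many WRKY genes carry W boxes in their own promoters. WRKY18, WRKY40 and WRKY60 form complexes with themselves and with each other, and have parts in defence and in abscisic acid signalling.

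Libraries held 9427912 to 13951019 reads as the divisor of their RPKM values (reads scaled by gene length and library total). The library WT BA 1 had been divided by the same total as WT vehicle 2, 11653485 reads, while its own reads summed to 10064373, so its values were set on a scale 86.4% of that of the median library. The vehicle libraries numbered 3 of both genotypes lay farthest from their group means, with a root mean square deviation over all tested genes of 0.30 on the log2 scale, against 0.17 to 0.23 in the other 10. The labels were checked on the mutated genes and on cytokinin markers. BPC1 averaged 11.7 RPKM ± 1.53 (SD, n = 3) in WT vehicle and 1.79 ± 0.390 in bpc vehicle, BPC2 17.1 ± 1.79 and 1.58 ± 0.318, and BPC6 31.9 ± 5.23 and 1.32 ± 0.468. BPC4 was at 23.4 ± 2.88 and 16.3 ± 1.68, and BPC3 was higher in the mutant, at 1.38 ± 0.255 and 3.16 ± 0.710. Gene totals do not show whether the BPC3 and BPC4 reads come from intact transcripts. ARR5, a type-A response regulator that cytokinin induces, averaged 5.28 RPKM with vehicle and 132 with BA in WT, and 5.75 and 130 in bpc. All 10 whole root markers were detected, at a summed 377 to 539 RPKM per library, and 8 of 10 shoot markers were detected too, at a summed 125 to 181 RPKM with LHCB1.1 and GLK1 under 0.5 RPKM.

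The promoters of 4 genes are shown because they include the 1 member that rose with BA (WRKY30), the member with the strongest fall (WRKY54) and a pair of close relatives of which WRKY53 fell in WT and WRKY41 did not pass. Each line is the 300 bases before the annotated gene start, 5′ to 3′ on the gene's strand, read from the RefSeq TAIR10.1 genome. Capitals mark the W boxes TTGACC and TTGACT on either strand (GGTCAA and AGTCAA are their reverse complements). The windows are chr5:8154711-8155010 on the minus strand for WRKY30, chr4:12393983-12394282 on the minus strand for WRKY53, chr4:6758798-6759097 on the plus strand for WRKY41 and chr2:17002529-17002828 on the minus strand for WRKY54.
WRKY30: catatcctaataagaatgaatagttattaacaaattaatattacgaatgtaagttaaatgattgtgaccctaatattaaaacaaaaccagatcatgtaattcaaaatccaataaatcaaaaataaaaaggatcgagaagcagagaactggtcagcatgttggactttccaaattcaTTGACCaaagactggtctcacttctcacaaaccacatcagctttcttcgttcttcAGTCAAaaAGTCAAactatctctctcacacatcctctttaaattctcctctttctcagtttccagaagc
WRKY53: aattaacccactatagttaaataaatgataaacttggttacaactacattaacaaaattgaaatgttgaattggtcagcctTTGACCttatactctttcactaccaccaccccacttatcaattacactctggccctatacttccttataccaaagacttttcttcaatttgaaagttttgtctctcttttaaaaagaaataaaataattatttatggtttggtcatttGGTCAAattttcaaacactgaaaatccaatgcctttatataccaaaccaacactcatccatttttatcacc
WRKY41: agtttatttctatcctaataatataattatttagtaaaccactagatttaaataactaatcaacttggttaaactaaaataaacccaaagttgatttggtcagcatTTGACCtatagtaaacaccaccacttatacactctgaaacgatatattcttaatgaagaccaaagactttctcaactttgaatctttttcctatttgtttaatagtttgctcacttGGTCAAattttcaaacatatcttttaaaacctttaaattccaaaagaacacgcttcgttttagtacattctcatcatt
WRKY54: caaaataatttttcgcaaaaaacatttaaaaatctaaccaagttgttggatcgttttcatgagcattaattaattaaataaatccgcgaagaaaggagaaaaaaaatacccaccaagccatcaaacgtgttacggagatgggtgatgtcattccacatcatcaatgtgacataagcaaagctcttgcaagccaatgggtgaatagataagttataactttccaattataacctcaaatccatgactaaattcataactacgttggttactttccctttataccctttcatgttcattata

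WRKY30 held 3 W boxes, starting at −124, −69 and −61 relative to the gene start. At least 1 match of TTGACC or TTGACT was found in 4 of the 10 promoters (WRKY30, WRKY41, WRKY53 and WRKY55), and 32.3% of 27443 annotated promoters of the same length hold one. Of those promoters, 7.83% hold 2 or more, as do WRKY41 and WRKY53, and 1.53% hold 3 or more. Other matches of the core TTGAC were not counted, and the windows of WRKY40, WRKY46 and WRKY70 hold it as its reverse complement GTCAA. The promoters of WRKY41 and WRKY53 share the 19-base run ttggtcaaattttcaaaca, which contains the W box nearest to the start of each gene (−78 and −71). The GA-repeat letters GAGAGA, on either strand, occurred in WRKY30, WRKY46 and WRKY53, and in 23.6% of all promoters. In WRKY30 they lie in an 8-base run at −51, next to the pair of W boxes. The letters AGATT were searched too. They occurred in 6 of the 10 promoters, not in that of WRKY30, and in 70.7% of all promoters. A match of letters is a description of these windows and not evidence that a protein binds there.

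BA changed 6 of the 9 tested genes in WT: WRKY54, WRKY40, WRKY60, WRKY18 and WRKY53 fell, and WRKY30 rose (limma on log2(RPKM + 0.5), adjusted p under 0.05). Among all 20776 genes tested, 8.68% passed in this comparison, 3.85% higher and 4.83% lower. The median log2 difference was −0.72 over the 9 genes and −0.05 over all genes. In bpc roots, 4 of the 9 passed, with WRKY54, WRKY40 and WRKY60 lower and WRKY30 higher, where 8.59% of all genes passed (4.24% higher and 4.36% lower). There the median was −0.25 over the 9 genes and 0.00 over all genes. The BA and vehicle libraries did not overlap for 6 of the 9 genes in WT, against 20.9% of all genes, and for 5 in bpc, against 26.3%. WRKY18 is the fifth in bpc.

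Between the genotypes, WRKY30 alone passed, and it was lower in bpc both with vehicle (1.99% of all genes passed, 0.910% higher and 1.08% lower) and with BA (2.32% passed, 1.29% higher and 1.03% lower). The groups did not overlap for WRKY30, WRKY53, WRKY54 and WRKY70 with vehicle, where 16.7% of all genes did not overlap, and for WRKY30, WRKY70, WRKY18 and WRKY40 with BA, where 25.6% did not. None of the 9 passed the test of whether the BA response differed between genotypes, by limma on RPKM or on recovered whole reads, and none had an unadjusted p under 0.05. In that test 0.00481% of all genes passed. The comparisons share groups, so their values for 1 gene are not independent of each other.

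**Figure D1:**
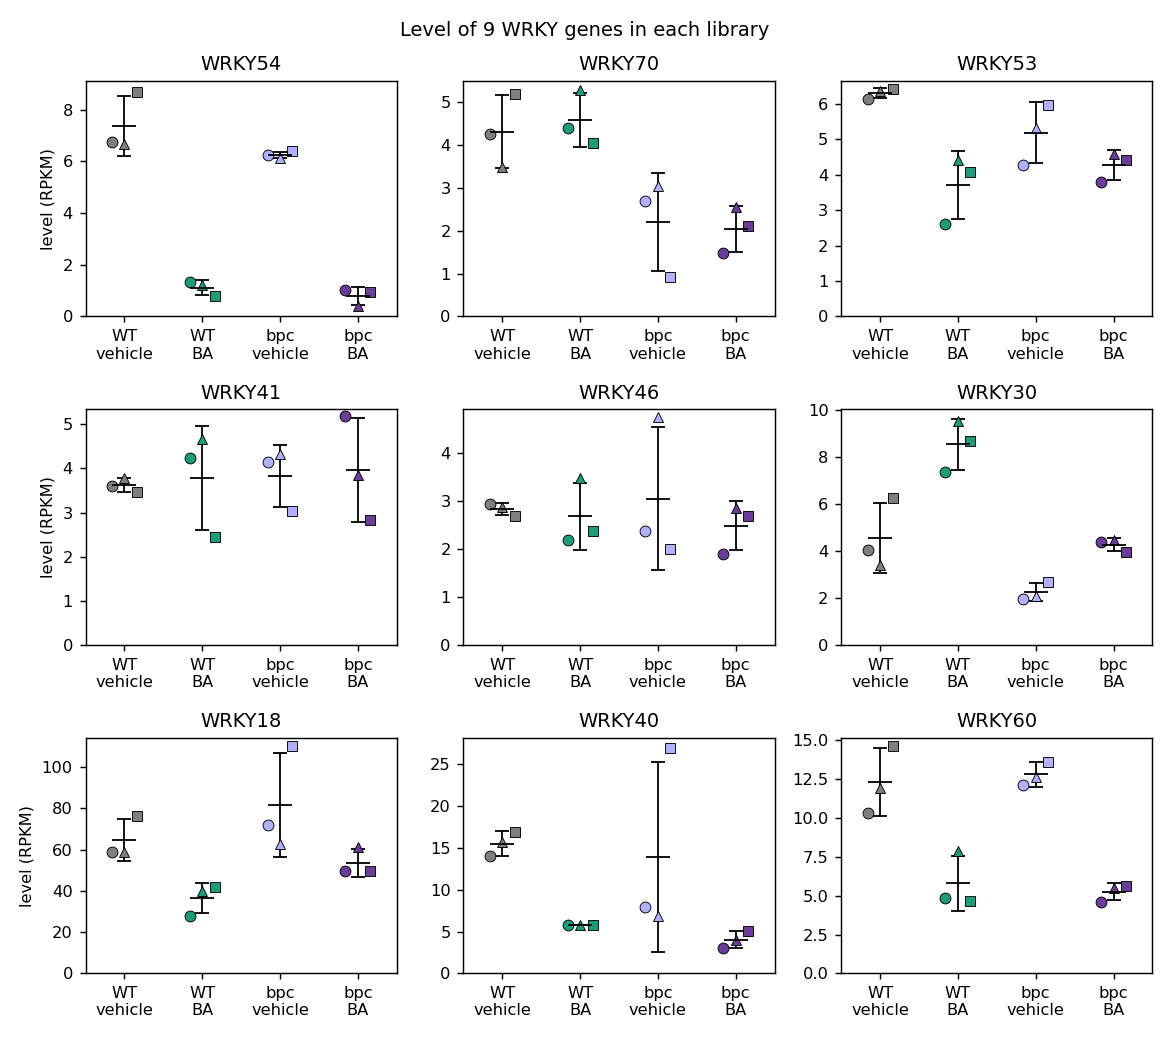
Level in RPKM (vertical axis, from 0, with its own scale in each panel) of the 9 tested WRKY genes in each of 12 libraries, by group. Circles, triangles and squares are the libraries numbered 1, 2 and 3, bars are the mean and SD of 3 libraries. The BA libraries lie under all vehicle libraries for WRKY54, WRKY60, WRKY40 and WRKY18 in both genotypes, narrowly for WRKY18 in bpc. They do so for WRKY53 in WT only, and lie above the vehicle libraries for WRKY30 in both genotypes.

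**Figure D2:**
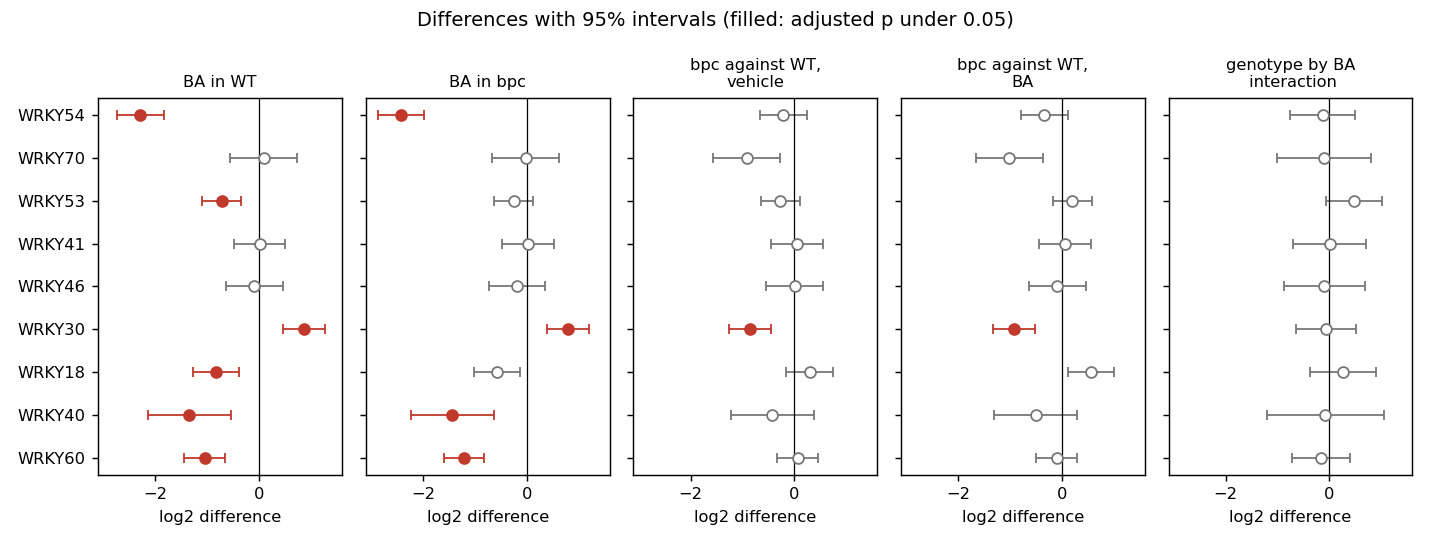
Difference in log2(RPKM + 0.5) (horizontal axis) with its 95% interval for the 9 genes in 5 comparisons, with filled red points where the adjusted p is under 0.05. WRKY54 has the lowest values in both BA panels, WRKY30 is the only filled point in both genotype panels, and no point is filled in the interaction panel.

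WRKY54, the closest relative of WRKY70 and a regulator of salicylic acid accumulation and leaf senescence, had the largest BA response of the 9. In WT its level was 6.76, 6.67 and 8.70 RPKM with vehicle and 1.35, 1.21 and 0.792 with BA. In bpc it was 6.24, 6.15 and 6.40 with vehicle and 1.03, 0.410 and 0.952 with BA. Every BA library was under every vehicle library by a wide gap, in both genotypes. The mean fell from 7.38 ± 1.15 to 1.12 ± 0.290 in WT (SD, n = 3), 6.60-fold, and from 6.26 ± 0.123 to 0.796 ± 0.336 in bpc, 7.87-fold. On the log2 scale these differences were −2.29 ± 0.21 (SE, adjusted p 1.4e-05) and −2.42 ± 0.21 (adjusted p 8.4e-06), and the difference between them was −0.13 with a 95% interval from −0.76 to 0.50. With vehicle, bpc libraries were all a little under WT (−0.21 ± 0.21, adjusted p 0.76), which did not pass. The authors' deposited tables give −2.60 in WT (FDR 2.9e-36) and −2.96 in bpc (FDR 4.0e-36). The lowest library held 6 reads of WRKY54 and the highest 126, so BA levels carry a large counting error. In bulk roots, fewer cells of a type and less RNA per cell cannot be told apart.

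WRKY54 (AT2G40750) lies at chr2:17000419-17002528 (TAIR10.1, minus strand), with WRKY55 919 bases away at chr2:16997078-16999499 on the plus strand, so that the 3′ ends of the pair face each other. WRKY55 (AT2G40740), a group III gene tied to leaf senescence and defence, was nearly silent in roots. It was listed at 0 in 9 of the 12 libraries, and in the other 3 (1 each of WT BA, bpc vehicle and bpc BA) at 0.0876, 0.106 and 0.104 RPKM. At 863 bases, the smallest gene length that gives whole numbers, these are 1 read each. The length used in the counting could not be fixed from so few values. At that smallest length 3 reads, the most that a count of 0 allows, would be 0.249 to 0.369 RPKM by counting error alone. It was the member left out of the tests. AT2G40730 (CTEXP), the gene next to WRKY55 on the other side, did not pass with BA and averaged 38.1 RPKM with vehicle and 37.0 with BA in WT. The gene next to WRKY54 on its other side, AT2G09180, a long non-coding RNA gene 4115 bases away, was not analysed here.

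WRKY70 (AT3G56400, chr3:20908711-20910623, minus strand) promotes salicylic acid defence and represses jasmonate-responsive genes. Its level in WT was 4.26, 3.48 and 5.19 RPKM with vehicle and 4.40, 5.27 and 4.05 with BA. The bpc libraries held 2.70, 3.03 and 0.916 with vehicle and 1.47, 2.55 and 2.1 with BA. The BA and vehicle libraries overlapped in both genotypes, while every bpc library lay under every WT library. BA differences were 0.09 (95% interval −0.56 to 0.73) in WT and −0.01 in bpc. The genotype difference was −0.92 ± 0.30 with vehicle (95% interval −1.56 to −0.27, adjusted p 0.16) and −1.02 ± 0.30 with BA (−1.66 to −0.37, adjusted p 0.11), so neither passed over all genes. Without the library bpc vehicle 3, which is not part of it, the genotype difference with BA passed with the same value (adjusted p 0.013). It also passed with only the groups compared (adjusted p 0.011). It passed in 4 of 26 alternatives, and without WT BA 1 it was −1.04 (adjusted p 0.24). The difference with vehicle was −0.50 without bpc vehicle 3 (adjusted p 0.31). The authors' deposited table, which compares the genotypes with vehicle, gives WRKY70 a log2 fold change of −0.97 and an FDR of 0.0070. Of the 19706 genes listed there, 13.1% have an FDR under 0.05.

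WRKY30 (AT5G24110, chr5:8153115-8154710, minus strand), a gene that responds early to pathogens and oxidative stress, was the only one of the 9 to rise with BA. In WT its level was 4.06, 3.40 and 6.25 RPKM with vehicle and 7.39, 9.57 and 8.70 with BA. In bpc it was 1.96, 2.1 and 2.68 with vehicle and 4.39, 4.47 and 3.95 with BA. BA libraries were above vehicle libraries in each genotype, and bpc libraries were under WT libraries in each treatment, with no overlap in any of the 4 comparisons. BA raised the mean to 187% of vehicle in WT (log2 difference 0.87 ± 0.19, adjusted p 0.010) and to 190% in bpc (0.80 ± 0.19, adjusted p 0.017). The mutant was at 49.3% of WT with vehicle (−0.85 ± 0.19, adjusted p 0.038) and at 49.9% with BA (−0.92 ± 0.19, adjusted p 0.025). The response itself did not differ detectably between genotypes (−0.07, 95% interval −0.65 to 0.51). The level in bpc with BA, 4.27 ± 0.279 RPKM lay within the range of WT with vehicle, 4.57 ± 1.49.

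The genotype calls of WRKY30 are close to the threshold. The vehicle call was lost without any 1 of 8 of the 12 libraries, with no filter on low levels, and when only the groups compared were fitted, at log2 differences of −0.91 to −0.62. The BA call was lost without WT BA 2 or 3 or any 1 bpc BA library, at −0.95 to −0.84. The BA response of WRKY30 in WT held in every alternative, and the response in bpc was lost without bpc vehicle 1 or 2 or bpc BA 1 or 2, at 0.73 to 0.78. With both vehicle libraries numbered 3 left out, all 4 calls held (1.1, 0.91, −0.74 and −0.92 in the order above, adjusted p at most 0.040). The authors' deposited tables give WRKY30 log2 fold changes of 1.1, 0.94 and −1.09 for BA in WT, BA in bpc and the genotypes with vehicle, each with an FDR under 0.05. Such an FDR is given to 18.8% of 19706 genes for BA in WT and to 23.8% for BA in bpc.

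WRKY53 (AT4G23810, chr4:12392370-12393982, minus strand), an activator of leaf senescence, fell with BA in WT. Its level there was 6.15, 6.35 and 6.43 RPKM with vehicle and 2.61, 4.43 and 4.08 with BA. Mutant libraries stood at 4.27, 5.31 and 5.98 with vehicle and 3.79, 4.59 and 4.41 with BA. The WT groups did not overlap, and the bpc groups did. BA left WRKY53 at 58.7% of vehicle in WT (log2 difference −0.72 ± 0.17, adjusted p 0.019), and the difference in bpc was −0.25 ± 0.17 (95% interval −0.63 to 0.13, adjusted p 0.54). The test of the difference between these responses gave 0.48 ± 0.25 (95% interval −0.06 to 1.01, unadjusted p 0.077, adjusted p 1.00), so a genotype dependence was not shown. The WT call was lost without WT vehicle 2 (−0.72, adjusted p 0.055) or without WT BA 1 (−0.52, adjusted p 0.063), and with only the groups compared (−0.72, adjusted p 0.058). It held with WT BA 1 put on its own read total (−0.66, adjusted p 0.014). The authors' deposited tables list WRKY53 at −0.68 in WT (FDR 1.6e-04) and −0.28 in bpc (FDR 0.22).

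WRKY41 (AT4G11070, chr4:6759098-6760794, plus strand), induced by flagellin and known for its part in seed dormancy, did not pass in any comparison. Its levels ran from 2.45 to 5.20 RPKM with every group overlapping every other, and the BA difference in WT was 0.01 with a 95% interval of −0.49 to 0.51. WRKY46 (AT2G46400, chr2:19043411-19044955, minus strand), which acts with WRKY53 and WRKY70 in basal resistance, also did not pass in any. Its levels ran from 1.89 to 4.74 RPKM, the highest in bpc vehicle 2, and its BA difference in WT was −0.09 (−0.64 to 0.46). The 95% interval of the WRKY53 difference in WT, −1.1 to −0.35, overlaps both of these intervals, and a difference in response between the genes was not tested. WRKY41 and WRKY53 each overlap the 3′ end of a gene on the other strand, AT4G11080 and AT4G23800, which encode HMG-box DNA-binding proteins, and WRKY40 overlaps AT1G80850 in the same way. The libraries were made with a stranded kit, and for the counting the strand setting was not stated. None of the 3 partners passed in any comparison, and in WT with BA they stood at 77.1%, 77.3% and 94.4% of vehicle. In WT vehicle AT4G11080 averaged 21.5 RPKM against 3.63 for WRKY41, and AT4G23800 61.9 against 6.31 for WRKY53. AT1G80850 averaged 3.75 against 15.5 for WRKY40. How far reads of a partner entered the WRKY values was not tested.

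WRKY18 (AT4G31800, chr4:15382777-15385100, plus strand) was the most abundant of the 10 genes in every group, per kilobase, and it fell with BA in WT. Its WT level was 58.7, 58.9 and 76.4 RPKM with vehicle and 27.9, 39.8 and 41.7 with BA. In the mutant it was 71.7, 62.7 and 110 with vehicle and 49.7, 61.2 and 49.6 with BA. BA libraries were under vehicle libraries in both genotypes, narrowly so in bpc, where 61.2 lies next to 62.7. In WT the mean with BA was 56.4% of vehicle (log2 difference −0.83 ± 0.21, adjusted p 0.024). In bpc it was 65.6% (−0.57 ± 0.21, 95% interval −1.02 to −0.12, adjusted p 0.14), which did not pass, and the 2 responses differed by 0.26 (−0.38 to 0.90). With BA, all bpc libraries were above all WT libraries, and the mean was 147% of WT (0.56 ± 0.21, 95% interval 0.11 to 1.01, adjusted p 0.21). That difference passed with both vehicle libraries numbered 3 left out (adjusted p 0.034), although neither is part of this comparison. It passed in 2 of 26 alternatives. With WT BA 1 on its own read total it was 0.49 (adjusted p 0.24), and without WT BA 1 it was 0.38 (adjusted p 0.57). The WT response was lost without WT vehicle 3 (−0.70, adjusted p 0.079) or WT BA 1 (−0.65, adjusted p 0.12). In the authors' deposited tables WRKY18 falls in both genotypes, by −0.67 in WT (FDR 2.8e-07) and −0.61 in bpc (FDR 1.8e-06).

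WRKY40 (AT1G80840, chr1:30383561-30385499, plus strand) fell with BA in both genotypes, and the size in bpc depended on 1 library. In WT its level was 14, 15.7 and 16.9 RPKM with vehicle and 5.74, 5.81 and 5.76 with BA. In bpc it was 7.92, 6.88 and 26.9 with vehicle and 3.01, 3.98 and 5.06 with BA. The library bpc vehicle 3 stood far above both others of its group. The near equality of the 3 WT BA libraries holds for the deposited values, and on its own read total WT BA 1 would be at 6.65. With BA WRKY40 stood at 37.2% of vehicle in WT (log2 difference −1.35 ± 0.37, adjusted p 0.038) and at 28.9% in bpc (−1.43 ± 0.37, adjusted p 0.028). Without bpc vehicle 3, the responses were −1.35 in WT (adjusted p 8.6e-05) and −0.83 in bpc (adjusted p 0.0098), and WRKY40 then passed as lower in bpc with vehicle (−1.02, adjusted p 0.013), where the value over all libraries was −0.42 (adjusted p 0.72). The difference between the 2 responses turned from −0.08 to 0.52 ± 0.23 without that library and passed in neither (adjusted p 1.00 in both). That library also deviated upward for WRKY18 and downward for WRKY70.

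The WT call of WRKY40 was lost in 13 of 26 alternatives, at log2 differences of −1.42 to −1.28. They include scaling by median of ratios, quantile normalization, TPM, no filter, and WT BA 1 on its own read total (−1.28, adjusted p 0.056). The bpc call was lost with no filter, with only the groups compared and without bpc BA 1 or 2. No alternative changed the direction of WRKY40 with BA in either genotype. The authors' deposited tables give WRKY40 −1.21 in WT (FDR 0.0043) and −1.79 in bpc (FDR 7.4e-06).

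WRKY60 (AT2G25000, chr2:10629662-10631413, plus strand) fell with BA in both genotypes. Its level was 10.3, 11.9 and 14.6 RPKM in WT vehicle and 4.83, 7.84 and 4.67 in WT BA. Mutant levels were 12.1, 12.6 and 13.6 with vehicle and 4.61, 5.52 and 5.61 with BA. The groups did not overlap in either genotype. BA left 47.0% of the vehicle level in WT (log2 difference −1.05 ± 0.18, adjusted p 0.0023) and 41.1% in bpc (−1.21 ± 0.18, adjusted p 8.0e-04), and these calls held in all 26 alternatives, as did those of WRKY54. The 2 responses differed by −0.16 (95% interval −0.72 to 0.39), and the genotypes by 0.07 with vehicle and −0.10 with BA. The authors' deposited tables give WRKY60 −0.95 in WT (FDR 5.6e-09) and −1.29 in bpc (FDR 4.4e-15).

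**Figure D3:**
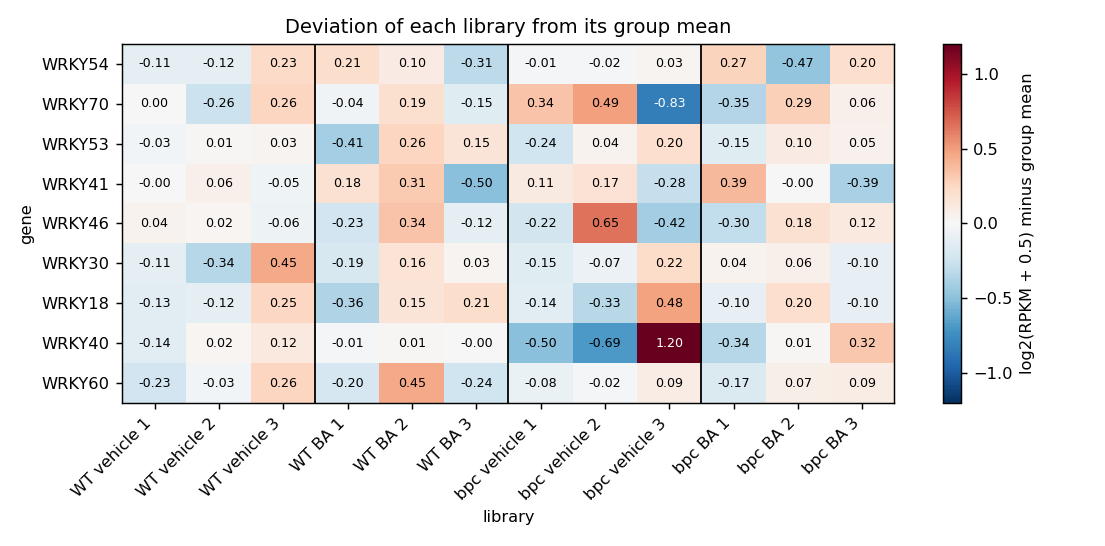
Deviation of each library from the mean of its group in log2(RPKM + 0.5), as colour and number, for 9 genes (rows) and 12 libraries (columns, groups parted by black lines). The deepest colours stand in bpc vehicle 3, where WRKY40 is 1.20 above its group mean and WRKY70 deviates by −0.83.

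The group IIa genes WRKY18, WRKY40 and WRKY60 summed to 83.0, 86.6 and 108 RPKM in WT vehicle and to 38.5, 53.4 and 52.1 in WT BA. The 38.5 is that of WT BA 1, on a scale 86.4% of that of the median library. In bpc they summed to 91.7, 82.2 and 151 with vehicle and to 57.3, 70.7 and 60.3 with BA. WRKY18 made up 68.1% to 70.8% of that sum in WT vehicle and 72.5% to 80.0% in WT BA. In bpc its share was 73.1% to 78.2% with vehicle and 82.3% to 86.7% with BA, so the share was higher with BA in every library of each genotype, and in bpc BA the WRKY40 share was 5.25% to 8.40%. These are shares of levels per kilobase of mRNA and say nothing of protein.

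The 10 genes were put in order of their mean RPKM in each group. With vehicle the first 5 places, in both genotypes, went to WRKY18, WRKY40, WRKY60, WRKY54 and WRKY53. The second place of WRKY40 in bpc rests on bpc vehicle 3, since its mean of 13.9 RPKM is 7.40 without that library, in place 3 behind WRKY60 at 12.3. WRKY40 and WRKY60 overlapped in both genotypes, whereas WRKY60 lay above WRKY54, and WRKY54 above WRKY53, with no overlap. With BA, WRKY54 dropped to place 9, above WRKY55 only, and without overlap with the gene ahead of it. WRKY30 rose from place 6 to 2 in WT and from 8 to 3 in bpc, overlapping its lower neighbour in that order in both BA groups. Without bpc vehicle 3, the place of WRKY30 in bpc vehicle was 9. With WT BA 1 on its own read total, WRKY40 and WRKY60, at 6.07 and 6.03 RPKM, changed places in WT BA, and WRKY30 and WRKY54 kept theirs.

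The other WRKY genes gave a background for these values, from lists chosen with earlier results of these data known. Of the 6 further group III genes, only WRKY38 and WRKY63 were expressed enough to test. WRKY38, a repressor of basal defence, fell with BA from 1.94 ± 0.447 to 0.495 ± 0.0991 RPKM in WT (log2 difference −1.28 ± 0.21, adjusted p 0.0018) and from 2.07 ± 0.625 to 0.897 ± 0.164 in bpc (−0.85 ± 0.21, adjusted p 0.024). Of 46 tested genes in the rest of the family, 4 rose and 2 fell in WT, and 4 rose and 4 fell in bpc, with medians of −0.14 and −0.17. Of all genes tested, 3.85% rose and 4.83% fell in WT, and 4.24% and 4.36% in bpc, with medians of −0.05 and 0.00. WRKY23, an auxin-responsive root gene, rose from 6.19 ± 1.07 to 18 ± 2.70 RPKM in WT (1.47 ± 0.15, adjusted p 3.4e-05), and WRKY65 fell from 169 ± 8.55 to 95.5 ± 11.4 (−0.83 ± 0.10, adjusted p 1.8e-04). WRKY42, a regulator of phosphate homeostasis, rose from 0.135 ± 0.117 to 2.02 ± 0.661, and WRKY17, a repressor of basal resistance, from 63.9 ± 3.66 to 104 ± 11.8. Between genotypes WRKY14 was lower in bpc with vehicle (−0.71 ± 0.16, adjusted p 0.045) and with BA (−0.71 ± 0.16, adjusted p 0.042), and no other gene of this list passed. That is 1 of 46 in each treatment, near the share of all genes that passed, 1.99% with vehicle and 2.32% with BA.

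Of 19 tested genes of salicylic acid synthesis and signalling, 2 rose and 2 fell with BA in WT, and 2 rose and 3 fell in bpc, while 15 and 14 did not pass, with medians of −0.19 and −0.20. Over all genes 8.68% passed with BA in WT and 8.59% in bpc, with medians of −0.05 and 0.00. ICS1, which makes the precursor of salicylic acid, rose from 12.8 ± 0.560 to 20.8 ± 4.44 RPKM in WT (0.66 ± 0.15, adjusted p 0.014), and DLO1, which hydroxylates salicylic acid, rose from 5.48 ± 0.687 to 14.8 ± 1.61 (1.36 ± 0.13, adjusted p 2.3e-05). PAD4, a partner of EDS1 in defence, fell from 25.3 ± 2.18 to 15 ± 1.68, and the salicylic acid receptor gene NPR3 from 28.8 ± 4.73 to 15.2 ± 1.42. With vehicle, ICS1 (20.7 ± 3.07 in bpc, 0.67 ± 0.15, adjusted p 0.040) and the bZIP factor gene TGA4 (0.60 ± 0.14, adjusted p 0.044) were higher in bpc than in WT. In that comparison 1.99% of all genes passed. With BA the genotype differences were 0.60 ± 0.15 for ICS1 (adjusted p 0.060) and 0.49 ± 0.14 for TGA4 (adjusted p 0.092), and neither passed.

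Early immune genes gave 1 higher, 2 lower and 13 not past the threshold of 16 in each genotype, with medians of −0.21 in WT and −0.15 in bpc. For comparison with this and the next lists, 3.85% of all genes were higher and 4.83% lower in WT. In bpc these shares were 4.24% and 4.36%, and the medians over all genes were −0.05 in WT and 0.00 in bpc. NHL10 rose from 7.07 ± 1.38 to 63.0 ± 12.6 RPKM in WT, MYB51, a regulator of indole glucosinolates, fell from 14.3 ± 2.23 to 5.63 ± 0.899, and PAD3, the last enzyme of camalexin synthesis, fell from 11.4 ± 1.12 to 6.17 ± 0.507. Touch and calcium genes, which respond to handling, gave 0 higher, 4 lower and 10 not past the threshold of 14 in each genotype, with medians of −0.61 in WT and −0.42 in bpc. The calmodulin-like gene CML40 fell in WT from 3.31 ± 0.730 to 1.34 ± 0.233 RPKM (−1.04 ± 0.18, adjusted p 0.0023), and its value in bpc, −0.50, did not pass. ERF6 fell in bpc from 18.2 ± 1.49 to 11.2 ± 1.33 (−0.68 ± 0.14, adjusted p 0.0074), and its value in WT, −0.48, did not pass. The difference between the genotypes' responses passed for neither (0.53 and −0.20). TCH3, a calmodulin-like gene, fell from 174 ± 17.1 to 109 ± 25.5 RPKM in WT, ERF5 from 24.7 ± 4.13 to 14.5 ± 4.21, and CML37, another calmodulin-like gene, from 25.8 ± 7.81 to 14.4 ± 0.787. Between genotypes 1 of these 14 passed in each treatment, where 1.99% of all genes passed with vehicle and 2.32% with BA. CML37 was lower in bpc with vehicle (12.9 ± 1.51 against 25.8 ± 7.81, adjusted p 0.027) and with BA (7.01 ± 1.14 against 14.4 ± 0.787, adjusted p 0.019). The part of these genes in the WRKY values was not tested. All 10 type-A response regulators rose in both genotypes, with medians of 3.54 in WT and 3.78 in bpc. In WT, ARR3 rose from 3.47 ± 0.704 to 40.9 ± 4.26 RPKM, ARR16 from 0.372 ± 0.274 to 33.2 ± 4.2, ARR6 from 10.4 ± 2.39 to 104 ± 15.1 and ARR15 from 0.406 ± 0.113 to 19.5 ± 1.49. ARR17 rose in bpc from 0.343 ± 0.418 to 20.4 ± 1.28. Of 10 whole root markers, PHO1, a phosphate exporter gene of the stele, and SCR and MYB36, regulators of the endodermis, fell with BA in both genotypes, and the root hair gene RHD6 rose in bpc (0.62 ± 0.17, adjusted p 0.044). The summed level of the list was 493 to 539 RPKM in WT vehicle, 377 to 472 in WT BA, 444 to 463 in bpc vehicle and 407 to 416 in bpc BA. No shoot marker passed in any comparison. With BA in WT, PSAD1 averaged 16.7 RPKM against 19.4 with vehicle, and PSBO1 40.4 against 45.8. These WT BA values, and the sums above, include WT BA 1, which was set on a scale 86.4% of that of the median library.

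**Figure D4:**
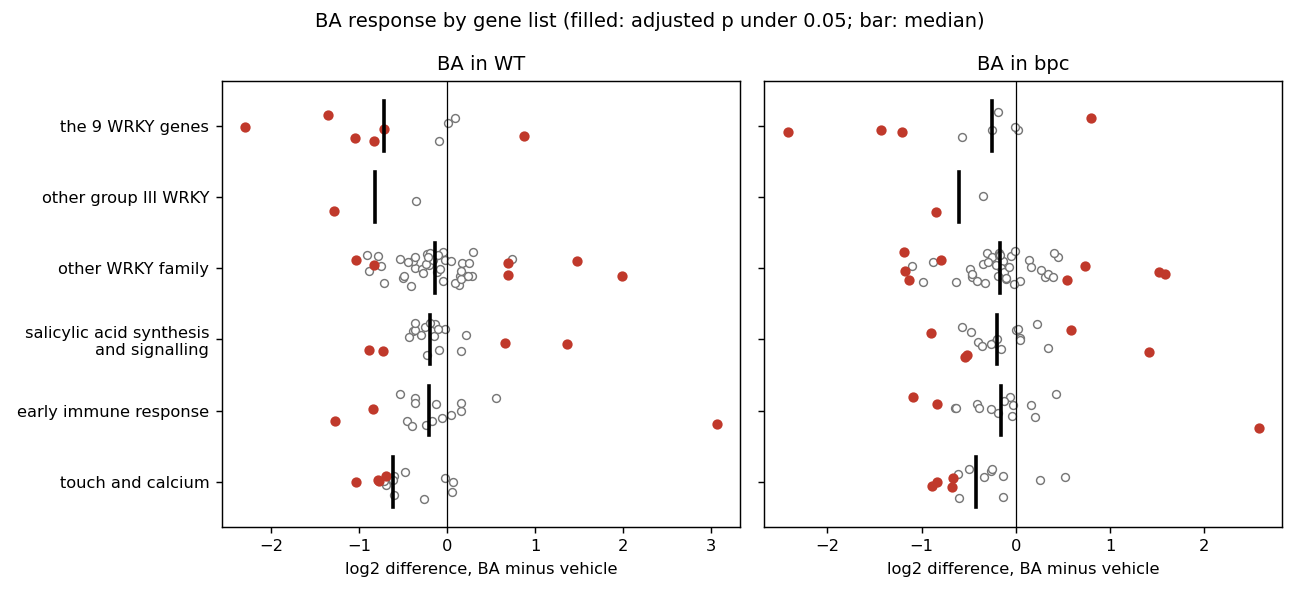
Log2 difference with BA (horizontal axis) of each tested gene in 6 lists, in WT (left) and bpc (right); filled red points have an adjusted p under 0.05 and the vertical bar is the list's median. The 9 WRKY genes have a median of −0.72 in WT and −0.25 in bpc, and the touch and calcium genes −0.61 and −0.42.

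The genes whose profile was nearest to a WRKY gene were ranked among 17517 genes by the root mean square difference of their centred log2(RPKM + 0.5) profiles over the 12 libraries. Chosen in this way, they share their course over these libraries with the WRKY gene by construction. For WRKY54 these were AT1G49030 (0.28), IPT5 (0.31), WAG1 (0.35) and GRI (0.37), while the profile of WRKY54 itself departs from its own mean by 1.21. IPT5 encodes an isopentenyltransferase of cytokinin synthesis, and it averaged 8.40 ± 1.32 RPKM with vehicle and 1.58 ± 0.160 with BA in WT. For WRKY53 the nearest were AT2G05160 (0.11), PDE337 (0.12), the cytokinin receptor gene HK3 (0.12) and BBD1 (0.14), against 0.33 for WRKY53 itself. For WRKY40 they were CYP71A20 (0.33), AT5G54720 (0.34), the NADPH oxidase gene RBOHB (0.35) and AT2G15760 (0.35), and for WRKY18 AT1G04770 (0.15), MYB63 (0.16), OFP2 (0.17) and scpl50 (0.17). By the same measure WRKY60 ranked 96 and WRKY40 ranked 110 from WRKY54, ahead of the other members.

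**Figure D5:**
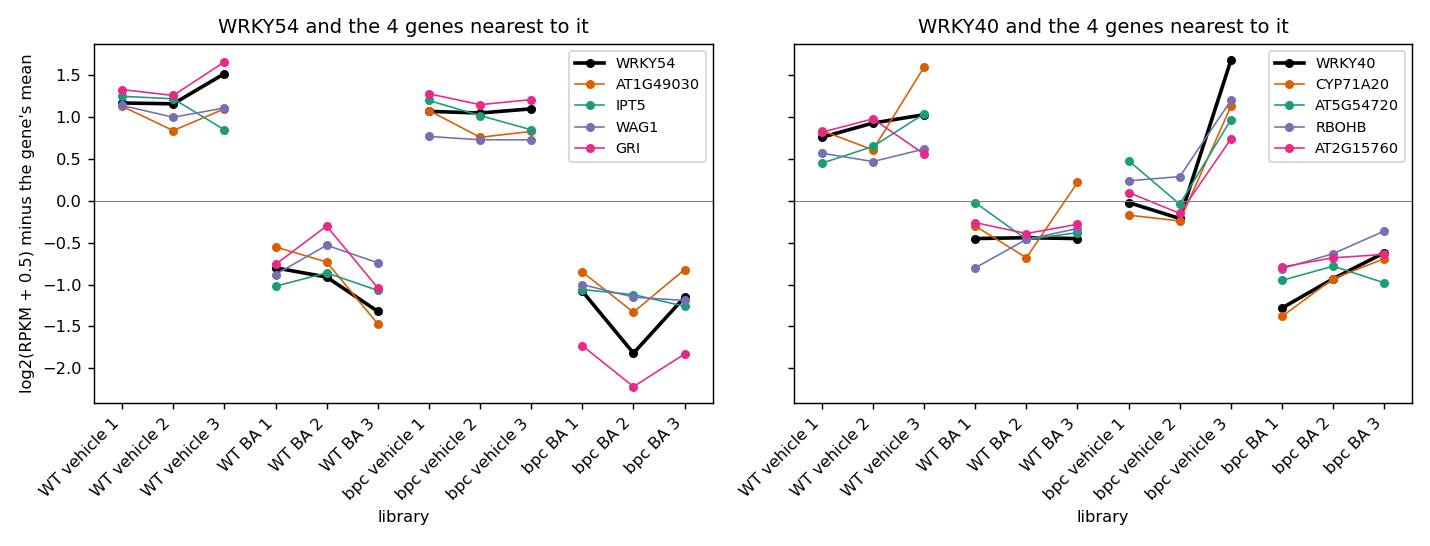
Centred log2(RPKM + 0.5) (vertical axis) in each library (horizontal axis) of WRKY54 (left) and WRKY40 (right) in black with the 4 genes nearest to each in colour. WRKY54 and its neighbours are high in all 6 vehicle libraries and low in all 6 BA libraries. WRKY40 itself is highest in bpc vehicle 3 (1.68), where CYP71A20 is at 1.13, under its 1.6 in WT vehicle 3. The neighbours were chosen for likeness over these same libraries.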

How the data were processed

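Groups and replicate numbers came from the sample titles, which do not say that libraries of 1 group were grown separately, so p-values describe the spread among these libraries and may reflect technical variation alone. The authors deposited RPKM values of 33602 genes for 12 libraries. For the authors' processing, the submitters' processing notes name featureCounts, edgeR 3.0, TopHat2 2.0.11, SAMtools 0.1.18 and Bowtie 1.1.0, and the build TAIR10. The authors also deposited 3 tables of comparisons with log2 fold changes, p-values, FDR and a test score, of which the log2 fold changes and FDR are quoted. For the strand setting of the counting, nothing was given in the sources used here. All 10 members and the gene lists were chosen with earlier results of these data known.

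RPKM steps gave whole reads (within 0.02 reads) for all 25442 genes above 0, from which read totals were taken. Differences were computed with limma 3.58.1 in R 4.3.3 on log2(RPKM + 0.5), which understates changes of low genes, with an intensity trend, 1 coefficient per group and 8 residual degrees of freedom, for the 20776 genes that reached 0.5 RPKM in 3 or more libraries. P-values were two-sided and Benjamini-Hochberg adjusted over all genes tested, with a threshold of 0.05. The method was run on simulated data with independent noise for each gene and library. Those data held no shared deviation of libraries and no library on another scale, so they cannot show how these affect the calls. All members were named, with up to 4 genes of each list by smallest p among those past the threshold with BA in WT and in bpc, those past it between genotypes, 2 shoot markers, of which none passed (for other lists and comparisons with none past it, the 2 genes of smallest p were not printed), and the 4 genes of nearest profile to WRKY54, WRKY53, WRKY40 and WRKY18. BPC1, BPC2, BPC6, ARR5 and ARR16 checked the labels. BPC3, BPC4 and the genes overlapping or flanking members were named after their values were seen.

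Same-numbered WT and bpc vehicle libraries deviated together from their group means (correlations 0.31, 0.37 and 0.63 over genes). WT vehicle 1 correlated at 0.34 with bpc vehicle 2, so the numbers 1 and 2 do not set pairs apart. Only the libraries numbered 3 stood out as a pair. A block by number is thus not shown by these values, and the labels state none. In the other pairs of groups the correlations of same-numbered libraries ran from −0.28 to 0.16. Promoters and coordinates are RefSeq's own for TAIR10.1. Alternatives covered the pseudocount, the filter, scaling, TPM, the trend, the libraries fitted, the replicate block, each library left out, and, chosen after seeing the data, both vehicle libraries numbered 3 left out, voom on whole reads, and the block within 2 groups.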

Additional observations from a re-analysis of the deposited data

How the results depend on the processing

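Of 1152 alternative values of the 9 tested genes, 1047 kept direction and side of the threshold, 42 lost a call, 8 gained one, and 55 changed sign, all of them values called in neither fit. As libraries were left out 1 at a time, the number of the 9 genes past the threshold ran from 3 to 6 for BA in WT (3 without WT BA 1). It ran from 2 to 4 for BA in bpc (2 without bpc BA 1 or 2), and from 0 to 2 for either genotype comparison. The counts over all genes moved too. Without WT BA 1 they were 829 higher and 622 lower for BA in WT, against 799 and 1004 with all libraries. For BA in bpc they were 678 and 591 without bpc BA 1 and 624 and 585 without bpc BA 2, against 880 and 905. Without bpc vehicle 3, which gave 2 in both genotype comparisons, they were 146 and 179 with vehicle and 365 and 265 with BA. The vehicle genotype comparison gave 0 with no filter and with only the groups compared, and 2 with both vehicle libraries numbered 3 left out. Over all genes these fits gave 173 higher and 208 lower, 26 and 54, and 162 and 196, against 189 and 225 in the fit reported above. The BA genotype comparison gave 2 with only the groups compared, 3 with those groups and the replicate block, and 3 with both vehicle libraries numbered 3 left out. Calls over all genes rose with these counts. They were 538 higher and 357 lower, 758 and 470, and 809 and 457, against 268 and 213 in the fit reported above. The replicate block over all 4 groups left every count as it was (6, 4, 1, 1 and 0). In the vehicle groups alone it gave 1, WRKY30, with 390 higher and 451 lower over all genes. The interaction count was 0 throughout.

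The sign changes were the following. With both vehicle libraries numbered 3 left out they were WRKY41 with BA in WT (−0.01) and in bpc (−0.12), and the interactions of WRKY41 (−0.11) and WRKY40 (0.46, from −0.08). WRKY70 with BA in bpc was 0.01 at a pseudocount of 0.1 and 0.00 after quantile normalization. Genotype differences with vehicle turned for WRKY41 (−0.02, quantile) and WRKY46 (−0.02 by median of ratios, −0.06 quantile), and with BA for WRKY41 (−0.02 under either). The WRKY41 interaction was −0.04 by median of ratios and by voom, −0.01 quantile, −0.05 in TPM and −0.06 with WT BA 1 on its own total. As libraries were left out 1 at a time, the BA difference in WT ran from −0.14 to 0.26 for WRKY41, −0.26 to 0.02 for WRKY46 and −0.04 to 0.22 for WRKY70, and in bpc from −0.17 to 0.21, −0.40 to 0.14 and −0.43 to 0.23. The vehicle genotype difference ran from −0.03 to 0.20 for WRKY41, −0.31 to 0.22 for WRKY46 and −0.05 to 0.19 for WRKY60, and the BA one from −0.18 to 0.26, −0.20 to 0.08 and −0.22 to 0.13. Interactions ran from −0.29 to 0.10 (WRKY30), −0.24 to 0.20 (WRKY41), −0.31 to 0.23 (WRKY46), −0.28 to 0.11 (WRKY54), −0.51 to 0.14 (WRKY70), −0.43 to 0.52 (WRKY40) and −0.29 to 0.06 (WRKY60). The cause of these changes was not tested. WT BA 1 on its own read total moved the median of all genes with BA in WT from −0.05 to 0.02, and depth limits WRKY54 with BA and WRKY70 most, with as few as 6 and 10 reads in a library.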
